A study of Mus musculus with 27 samples.

Results

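Disulfiram (DSF) and ibrutinib were set directly against each other, gene by gene, in mouse B cells that had received one of 2 stimuli. The 4 libraries compared were LPS with DSF, LPS with ibrutinib, IL-4+anti-CD40 with DSF and IL-4+anti-CD40 with ibrutinib, out of the 27 samples of the series. All 4 came from the second of 2 experiments, which had 7 libraries and 1 library per condition. Genes were kept when their counts averaged at least 100 over those 7 libraries, which left 9659 of 54532 genes, 9025 of them protein-coding. The lowest mean inside this limit was 100 counts and the highest outside it 99.9. The 3 libraries without inhibitor entered this mean and the scaling of the libraries. No ratio of DSF over ibrutinib has any of them as numerator or denominator.

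The cells were B cells of the spleen from C57BL6 mice labelled WT, taken by negative selection, which removes other cell types by antibody and leaves the B cells untouched. They were cultured for 3 h, and both inhibitors were used at 1 μM. The other 3 libraries of the second experiment were unstimulated cells and cells given each stimulus with vehicle (named DMSO in the labels). They serve here for placement, for ratios of each inhibitor over vehicle and for the difference between the stimuli within vehicle. The first experiment held 20 libraries, 4 each of unstimulated cells, LPS with vehicle, LPS with DSF, IL-4+anti-CD40 with vehicle and IL-4+anti-CD40 with DSF, and no ibrutinib. The study described its replicates as biologically independent but did not name the mouse behind each library, so p-values measure the spread between these samples. Because each inhibitor and stimulus had 1 library, the ratios below have no replicate check, no test was made on them, and their intervals cover counting error only.

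Ibrutinib binds a cysteine of Bruton's tyrosine kinase (BTK), the kinase that carries the signal of the B cell receptor to phospholipase C gamma 2 and on to NF-kB, and it also reacts with related kinases such as TEC, BLK and JAK3. DSF is an old drug against alcohol dependence that inactivates aldehyde dehydrogenases. Its metabolite binds copper and zinc, and the compound has also been tied to NPL4 of the p97 unfoldase, to gasdermin D and to FROUNT, the product of *Nup85*. LPS is sensed by TLR4 and stands for stimulation without T cells, while IL-4+anti-CD40 copies help from T cells. Both stimuli act without direct engagement of the B cell receptor.

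Library totals ran from 16049295 to 24619776 counts over the 7 libraries, and the genes compared held 98.8% to 99.1% of them. All 7 B cell markers looked for were detected in every library. Their summed level was 3580 and 3750 CPM (counts scaled to the same library size) with DSF against 6340 and 6420 CPM with ibrutinib, and in bulk RNA fewer cells of a type and less RNA per cell cannot be told apart. Summed markers of T cells were 14.3 and 16.9 CPM with DSF against 8.02 and 9.03 CPM with ibrutinib, those of plasma cells 450 and 478 against 277 and 319 CPM, and those of erythroid cells 64.5 and 74.5 against 25.5 and 52.2 CPM. Neutrophil markers summed to 3.66 and 4.74 CPM with DSF and 0.925 and 1.93 CPM with ibrutinib, and NK cell markers to 4.46 and 5.61 against 4.24 and 5.21 CPM. Summed dendritic cell markers stood lower with DSF, at 42.6 and 63.3 against 116 and 125 CPM, as did myeloid markers, at 117 in both DSF libraries against 240 and 262 CPM. Most of the dendritic sum was *Zbtb46*, at 42.8 CPM with LPS and 30.8 CPM with IL-4+anti-CD40 with DSF. It was at 108 and 106 CPM with ibrutinib, 93.2 and 99.8 CPM with vehicle and 10.7 CPM in unstimulated cells. *Xcr1* and *Clec9a* were higher with DSF under both stimuli, while *Flt3* and *Siglech* differed in direction between the stimuli. Within the myeloid list *Mpeg1* had 675 and 620 counts with DSF against 5021 and 6046 with ibrutinib, while *Itgam* went the other way, at 651 and 430 against 19 and 16. The part of these cell types in the results was not tested.

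The stimulus labels of the second experiment were checked against genes chosen after their values were seen. *Nfil3*, a target of IL-4, had 3561 counts with IL-4+anti-CD40 and vehicle against 237 with LPS and vehicle and 114 in unstimulated cells. *Saa3* and *Edn1*, which in the first experiment reached 179 to 201 and 405 to 528 counts in the LPS libraries with vehicle, had 1 and 8 counts in the LPS library with vehicle of the second experiment, and 6 and 2 in the unstimulated library. *Ifit3*, an interferon-stimulated gene, was at 1170 to 1380 CPM with LPS and vehicle and 10.7 to 29.5 CPM in unstimulated cells of the first experiment (n = 4 each). In the second experiment the same gene stood at 204 CPM with LPS and vehicle and at 397 CPM in unstimulated cells. The libraries labelled LPS in the second experiment thus lacked part of the LPS pattern of the first, so the IL-4+anti-CD40 ratios are printed beside the LPS ratios throughout.

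The lists furthest to either side were HSF1 chaperones (17 of 21 genes higher with DSF under both stimuli) and interferon-stimulated genes (26 of 31 higher with ibrutinib). With LPS, 1265 genes (13.1% of those compared) were 2-fold or more higher with DSF and 2132 (22.1%) were 2-fold or more higher with ibrutinib. With IL-4+anti-CD40 the numbers were 1421 (14.7%) and 2109 (21.8%). Under both stimuli together, 1066 genes (11.0%) were higher with DSF and 1702 (17.6%) higher with ibrutinib, and 3 genes passed 2-fold in opposite directions. Each count of called genes in a list below is to be read beside these shares of 11.0% and 17.6%. The 2 comparisons share no library. Of the genes higher with DSF, 84.3% of the LPS set and 75% of the IL-4+anti-CD40 set belonged to the shared set, and of those higher with ibrutinib 79.8% and 80.7%. Across the 9659 genes the log2 ratios of the 2 stimuli correlated with Pearson's r = 0.932 and Spearman's rho = 0.919, as a description over genes, which are not independent, and 8649 genes (89.5%) had the same sign.

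**Figure D1:**
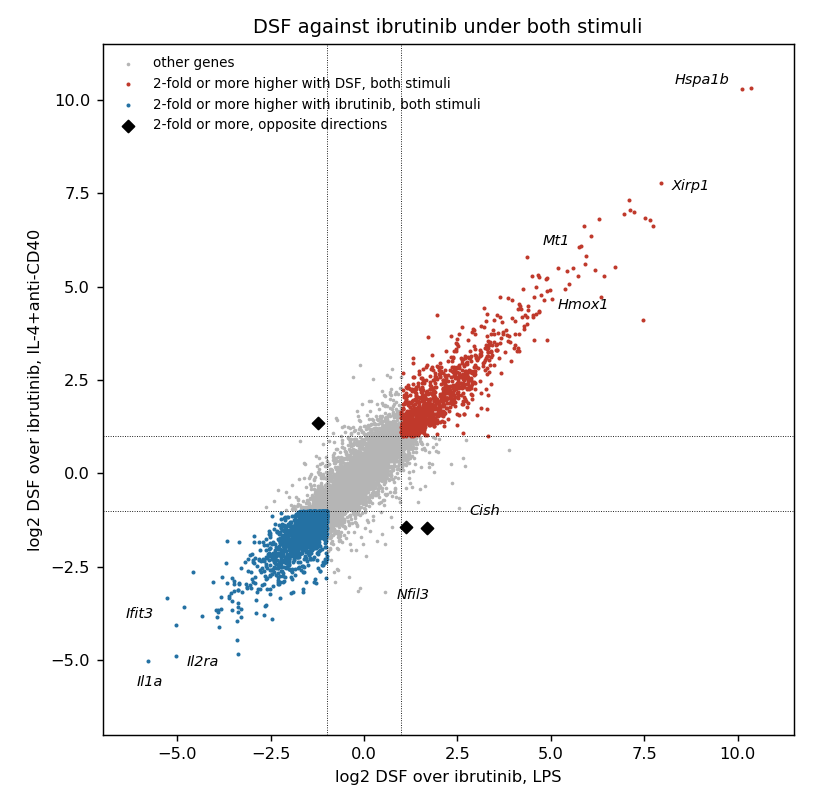
Each point is 1 of 9659 genes, placed by its log2 ratio of DSF over ibrutinib with LPS (x axis) and with IL-4+anti-CD40 (y axis), from 1 library per condition; dotted lines mark 2-fold. The 1066 red and 1702 blue genes lie along the diagonal, and the 3 black diamonds are the genes past 2-fold in opposite directions.

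The largest ratios were on the side of DSF. At 4-fold or more under both stimuli, 373 genes were higher with DSF and 221 with ibrutinib, and at 8-fold 133 and 33. The mean limit includes the DSF libraries, so genes near silence elsewhere could pass it through high DSF counts alone. The part of this filter in these numbers was not tested. The median log2 ratio over all genes was -0.248 under LPS and -0.187 under IL-4+anti-CD40, so a gene at 0 stood above the middle gene. These values use TMM scaling, in which DSF libraries had TMM factors of 0.840 and 0.880 against 1.03 and 1.05 for ibrutinib. With plain total counts the medians moved to -0.543 and -0.447, and the shared set became 803 genes higher with DSF and 2526 higher with ibrutinib, a DSF share of 24.1% in place of 38.5%. With the limit lowered to a mean of 10 counts the shared sets held 2194 and 2059 genes, a DSF share of 51.6%. As a measure of how often 2-fold arises between like libraries, 0.466% of the same genes spanned 2-fold or more among the 4 LPS libraries with DSF of the first experiment, 1.21% among the 4 with IL-4+anti-CD40 and DSF, 0.476% and 3.92% among the matching vehicle libraries and 10.8% among the unstimulated ones.

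The vehicle libraries sat with ibrutinib. Among the genes higher with DSF, the vehicle level of the same stimulus was nearer the ibrutinib library in 98.0% under LPS and 97.7% under IL-4+anti-CD40, and among the genes higher with ibrutinib in 98.9% and 98.2%. Over all genes compared these shares were 85.3% and 86.6%. Ibrutinib differed from vehicle by 2-fold or more in 1.02% of genes under LPS and 1.1% under IL-4+anti-CD40, and DSF in 36.1% and 38.2%. Unstimulated cells were also nearer ibrutinib than DSF in most of these genes, since they lay nearer DSF in 17.2% and 23.7% of the genes higher with DSF and in 14.8% and 19.2% of those higher with ibrutinib, beside 27.9% and 35.8% over all genes compared. For 97.2% and 96.7% of the genes higher with ibrutinib, the DSF library lay below the unstimulated one, beside 56.8% and 56.2% over all genes compared. The same DSF and ibrutinib libraries chose both sets, so the shares within the sets are not independent of that choice. A DSF library low against unstimulated cells was favoured by it.

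The first experiment gave the direction of DSF alone in independent libraries. Among the 1060 genes higher with DSF than with ibrutinib that could be tested there, 1022 (96.4%) were higher with DSF than with vehicle under LPS and 6 lower (edgeR, quasi-likelihood, 8 libraries, Benjamini-Hochberg threshold 0.05). Under IL-4+anti-CD40, 1005 of 1060 (94.8%) were higher and 1 lower. Of the genes higher with ibrutinib, 1622 of 1701 (95.4%) were lower with DSF under LPS and 24 higher, and 1521 of 1700 (89.5%) were lower under IL-4+anti-CD40 and 11 higher. The same test called 36.9% of all genes compared higher and 44.3% lower under LPS, and 33.1% and 39.2% under IL-4+anti-CD40. The median fitted log2 change of the genes higher with DSF was 1.15 under LPS and 1.04 under IL-4+anti-CD40. For those higher with ibrutinib it was -0.74 and -0.69, beside -0.06 and -0.05 over all genes. Median log2 ratios of DSF over vehicle in the second experiment were 1.79 and 1.81 for the first set and -1.55 under each stimulus for the second. The DSF libraries of the second experiment helped choose these genes, so larger sizes there were favoured by the choice.

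**Figure D2:**
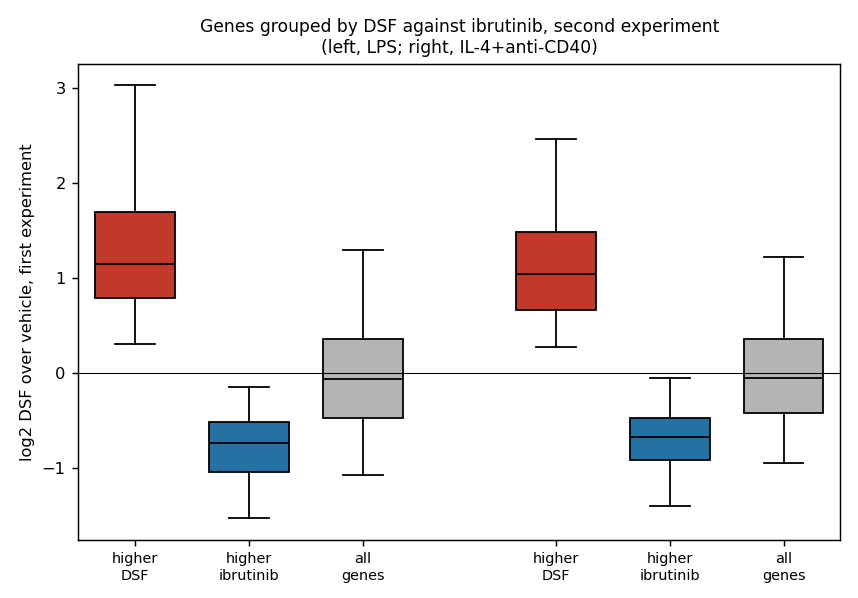
Boxes show the fitted log2 change of DSF over vehicle in the first experiment (4 libraries per group) for genes higher with DSF than ibrutinib in the second experiment (red), higher with ibrutinib (blue) and all genes compared (grey), with LPS at the left and IL-4+anti-CD40 at the right; lines are medians, boxes quartiles and whiskers the 5th and 95th percentiles. The red medians are 1.15 and 1.04 and the blue medians -0.74 and -0.69.

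Cytosolic chaperones under heat shock factor 1 (HSF1), which hold and refold damaged proteins, led the genes higher with DSF. In the HSF1 list 17 of 21 genes were 2-fold or more higher with DSF under both stimuli and 0 were higher with ibrutinib, with median log2 ratios of 2.51 and 2.36. Together the 21 genes took 68100 CPM with LPS and DSF and 57600 CPM with IL-4+anti-CD40 and DSF, against 7420 and 8240 CPM with ibrutinib, 8400 and 9480 CPM with vehicle and 4500 CPM in unstimulated cells. The 4 genes outside the call were *Hspa4*, *Cacybp*, *Fkbp4* and *Hsf1* itself, with log2 ratios between -0.25 and 0.37. In the first experiment 18 of the 21 were higher with DSF under LPS and 0 lower, and 19 and 1 under IL-4+anti-CD40.

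The inducible Hsp70 pair *Hspa1a* and *Hspa1b* gave the widest gap. With DSF, *Hspa1b* had 272367 counts under LPS and 169724 under IL-4+anti-CD40, against 290 and 242 counts with ibrutinib, 194 and 146 with vehicle and 241 in unstimulated cells. *Hspa1a* had 184842 and 112831 counts with DSF and 229 and 163 with ibrutinib. The 5 libraries without DSF were all at about the same low level and both DSF libraries stood far above them. The log2 ratio of *Hspa1b* was 10.35 (95% counting interval 10.2 to 10.54) under LPS and 10.32 (10.15 to 10.52) under IL-4+anti-CD40, and that of *Hspa1a* 10.13 and 10.29. These copies are nearly identical, so reads may be split between them, and their sum is safer, at 2.27% and 1.76% of all counts with DSF against 0.00225% and 0.00165% with ibrutinib. In the first experiment *Hspa1a* was at 2460 to 3220 CPM with LPS and DSF against 11.0 to 28.4 CPM with vehicle, and at 1960 to 2650 against 9.98 to 419 CPM with IL-4+anti-CD40, a wide spread among the 4 vehicle libraries of that stimulus.

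Small heat shock and co-chaperone genes followed. *Hspb1*, which encodes HSP27, had 3261 and 2353 counts with DSF and 19 and 41 with ibrutinib, log2 ratios of 7.74 and 6.63. *Bag3*, a co-chaperone that passes clients of Hsp70 to autophagy, had 2111 and 1584 against 50 and 40 counts, log2 ratios of 5.82 and 6.09. Among further members, *Hsph1* had log2 ratios of 5.04 and 4.67, *Hsp90aa1* of 3.56 and 3.3, *Dnajb1* of 3.4 and 3.24, and the mitochondrial pair *Hspd1* and *Hspe1* of 1.26 and 1.15 and of 2.51 and 2.55.

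Promoter sequences of 3 chaperone genes are shown because their transcripts differ most between the inhibitors, and because *Hspa1a* and *Hspa1b* are nearly the same sequence there. The stretches lie before the RefSeq starts on GRCm38.p6, at chr17:34972157-34972316 (minus strand) for *Hspa1a*, chr17:34959239-34959398 (minus strand) for *Hspa1b* and chr5:135887759-135887918 (plus strand) for *Hspb1*, each written 5′ to 3′ along the gene. Capitals mark the heat shock element core GAANNTTC, which reads the same on both strands.
Hspa1a: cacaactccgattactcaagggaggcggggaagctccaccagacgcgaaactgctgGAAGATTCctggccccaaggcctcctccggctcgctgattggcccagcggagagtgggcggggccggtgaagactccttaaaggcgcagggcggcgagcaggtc
Hspa1b: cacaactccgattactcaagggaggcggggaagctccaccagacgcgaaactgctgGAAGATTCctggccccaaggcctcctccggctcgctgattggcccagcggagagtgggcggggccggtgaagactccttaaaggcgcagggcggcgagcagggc
Hspb1: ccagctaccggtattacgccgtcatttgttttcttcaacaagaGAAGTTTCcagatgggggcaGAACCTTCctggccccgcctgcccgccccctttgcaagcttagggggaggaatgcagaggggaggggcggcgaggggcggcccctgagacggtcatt
*Hspa1a* and *Hspa1b* matched at 159 of the 160 bases and each held 1 element, 104 to 97 bases before the start, while *Hspb1* held 2, beginning 117 and 97 bases before it. Over 32851 RefSeq windows of 250 upstream bases 6.69% held the core, over windows of all genes compared 4.74%, of genes higher with DSF 5.3% and of genes higher with ibrutinib 4.39%. In the HSF1 list it was in 7 of 23 windows (30.4%), from the 17 of 21 genes with a window.

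Genes of zinc and copper handling differed in the same direction in part. *Mt1*, a metallothionein that binds zinc and copper, had 2595 and 2587 counts with DSF, against 57 and 81 with ibrutinib, 67 and 60 with vehicle and 115 in unstimulated cells, log2 ratios of 5.94 (5.62 to 6.4) and 5.83 (5.56 to 6.21). The zinc exporter gene *Slc30a1* had 613 and 576 counts against 259 and 241, and the copper transporter gene *Atp7a* 573 and 461 against 256 and 295. On the other side stood *Slc39a10*, a zinc importer gene, with 193 and 143 counts with DSF and 678 and 724 with ibrutinib. Of the 8 genes of the metal list 3 were higher with DSF and 1 with ibrutinib, and *Mtf1*, the gene of the zinc-sensing factor, had log2 ratios of -0.13 and -0.19. In the first experiment *Mt1* was higher with DSF by a log2 change of 3.59 (SE 0.321, edgeR adjusted p = 3.02e-10) under LPS and 2.67 (SE 0.792, adjusted p = 0.0122) under IL-4+anti-CD40.

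The *Mt1* promoter is printed for its metal response element, searched as TGCACNC and TGCGCNC on both strands, at chr8:94178929-94179081 on the plus strand of GRCm38.p6 from RefSeq, up to the first base of the gene as the deposited table places it. Capitals mark the match, which begins 23 bases before the RefSeq start.
Mt1: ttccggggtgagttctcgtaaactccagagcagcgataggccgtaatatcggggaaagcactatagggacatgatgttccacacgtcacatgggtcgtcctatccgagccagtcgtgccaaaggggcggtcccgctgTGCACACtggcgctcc
The element was in 21.4% of all windows, 30.2% of those of genes compared, 29.7% of those higher with DSF and 30.5% of those higher with ibrutinib.

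Targets of NRF2, the factor that answers oxidants and electrophiles, lay on both sides. Of 24 genes 11 were higher with DSF and 3 with ibrutinib, with medians of 0.82 and 0.93. *Hmox1*, heme oxygenase 1, had 33149 and 23288 counts with DSF, against 1561 and 1438 with ibrutinib and 939 and 996 with vehicle, log2 ratios of 4.9 (4.83 to 4.97) and 4.89 (4.82 to 4.97). Ferritin heavy chain, *Fth1*, had 110029 and 66393 against 25642 and 14457 counts, and *Osgin1* 1066 and 709 against 162 and 166. Both subunits of glutamate-cysteine ligase, which makes the precursor of glutathione, were higher with DSF, *Gclm* with log2 ratios of 2.61 and 2.58 and *Gclc* with 1.55 and 1.56. *Nqo1*, often used to read NRF2, differed little, at 0.05 and 0.16, and *G6pdx*, of the pentose phosphate pathway, *Blvra* and *Abcc1* were the 3 higher with ibrutinib, with log2 ratios between -1.76 and -1.25. The antioxidant response element, searched as TGACNNNGC on both strands, was in 16.1% of windows of genes higher with DSF, 9.94% of those higher with ibrutinib, 12% of those of all genes compared and 6 of 24 windows of the list.

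Carriers of ubiquitin and autophagy were almost uniformly higher with DSF. In that list 12 of 16 genes were called and 0 on the side of ibrutinib, with medians of 1.6 and 1.89. *Sqstm1*, whose product p62 brings ubiquitinated cargo to autophagosomes, had 125157 and 74855 counts with DSF against 20252 and 14322 with ibrutinib, log2 ratios of 3.12 and 3.26. *Zfand2a*, a stress-induced partner of the proteasome and p97, had 10488 and 7556 against 713 and 859 counts. All 16 were higher with DSF than with vehicle under both stimuli of the first experiment. Proteasome subunits did not share this in the direct comparison, since 0 of 31 were higher with DSF and 1, *Psma4*, was higher with ibrutinib, with 1064 and 995 against 3961 and 5291 counts. The list's medians of -0.17 and -0.16 lay beside -0.248 and -0.187 for all genes, while 27 and 24 of the 31 were higher with DSF than with vehicle in the first experiment.

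Part of the integrated stress response was higher with DSF, while *Atf4*, the central transcription factor of the pathway, was not called, with log2 ratios of 0.48 and 0.37. *Atf3* had 15381 and 10473 counts with DSF and 679 and 637 with ibrutinib, log2 ratios of 4.99 and 4.91. *Ddit3*, which encodes CHOP, had 2320 and 2251 counts against 501 and 1032, log2 ratios of 2.7 and 2.0, and *Cebpg* 5208 and 3909 against 1164 and 1603. *Slc3a2*, the heavy chain of amino acid exchangers, had 23605 and 19439 against 4349 and 6585 counts. In all 6 of 18 genes were called higher with DSF and 0 with ibrutinib, with medians of 1.46 and 0.57. The serine and folate enzymes *Phgdh*, *Psat1*, *Shmt2* and *Mthfd2* had log2 ratios from -0.72 to 0.73 with LPS and from -1.44 to -0.04 with IL-4+anti-CD40. In the endoplasmic reticulum list 1 of 23 genes was higher with DSF, *Dnajb9*, at 11445 and 7930 against 1098 and 1135 counts, and 2 were higher with ibrutinib, *Dnajb11* and *Sel1l*.

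Immediate early genes, the first to answer growth and stress signals, were largely on the side of DSF, at 13 of 24 against 1, with medians of 1.6 and 1.12. *Nr4a2*, an orphan nuclear receptor gene, had 2810 and 1811 counts with DSF and 56 and 38 with ibrutinib, log2 ratios of 6.08 and 6.36. *Fosl2* had 2453 and 1856 against 149 and 177 counts, *Fos* 2291 and 1576 against 437 and 326, and *Fosb* 5105 and 3175 against 1084 and 875. *Egr1* had log2 ratios of 1.6 and 1.82. The exception was *Myc*, which drives growth of activated B cells, with 2652 and 1565 counts with DSF, 13283 and 8981 with ibrutinib, 13025 and 9646 with vehicle and 1981 in unstimulated cells.

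Beyond these lists, the 12 protein-coding genes with the widest gap on the side of DSF included several of the cell surface. *Xirp1*, *Efr3b*, *P2rx7*, *Emp1*, *Rgcc* and *Hspb1* had 50 counts or fewer in each library without DSF. They passed the mean limit only through their DSF counts, so their place among the 12 rests in part on that filter. *Xirp1*, an actin-binding repeat protein gene known from muscle, had 421 and 311 counts with DSF and 0 in each of the other 5 libraries, so it was at least 197-fold higher with LPS and at least 190-fold higher with IL-4+anti-CD40, taking 3 counts as the limit for a library at 0. It overlaps *Cx3cr1* on the same strand. *P2rx7*, a channel opened by extracellular ATP, had 2326 and 1489 counts against 21 and 18. *Plaur*, the urokinase receptor, had 14600 and 10235 against 380 and 278, and *Emp1* 2322 and 1929 against 24 and 26. *Rgcc* had 2931 and 1982 against 28 and 20 counts, and *Efr3b* 1222 and 669 against 9 and 7. All 12 genes were higher with DSF than with vehicle in both stimuli of the first experiment, with log2 changes of 2.52 for *Emp1* under IL-4+anti-CD40 to 7.54 for *Xirp1* under LPS.

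**Figure D3:**
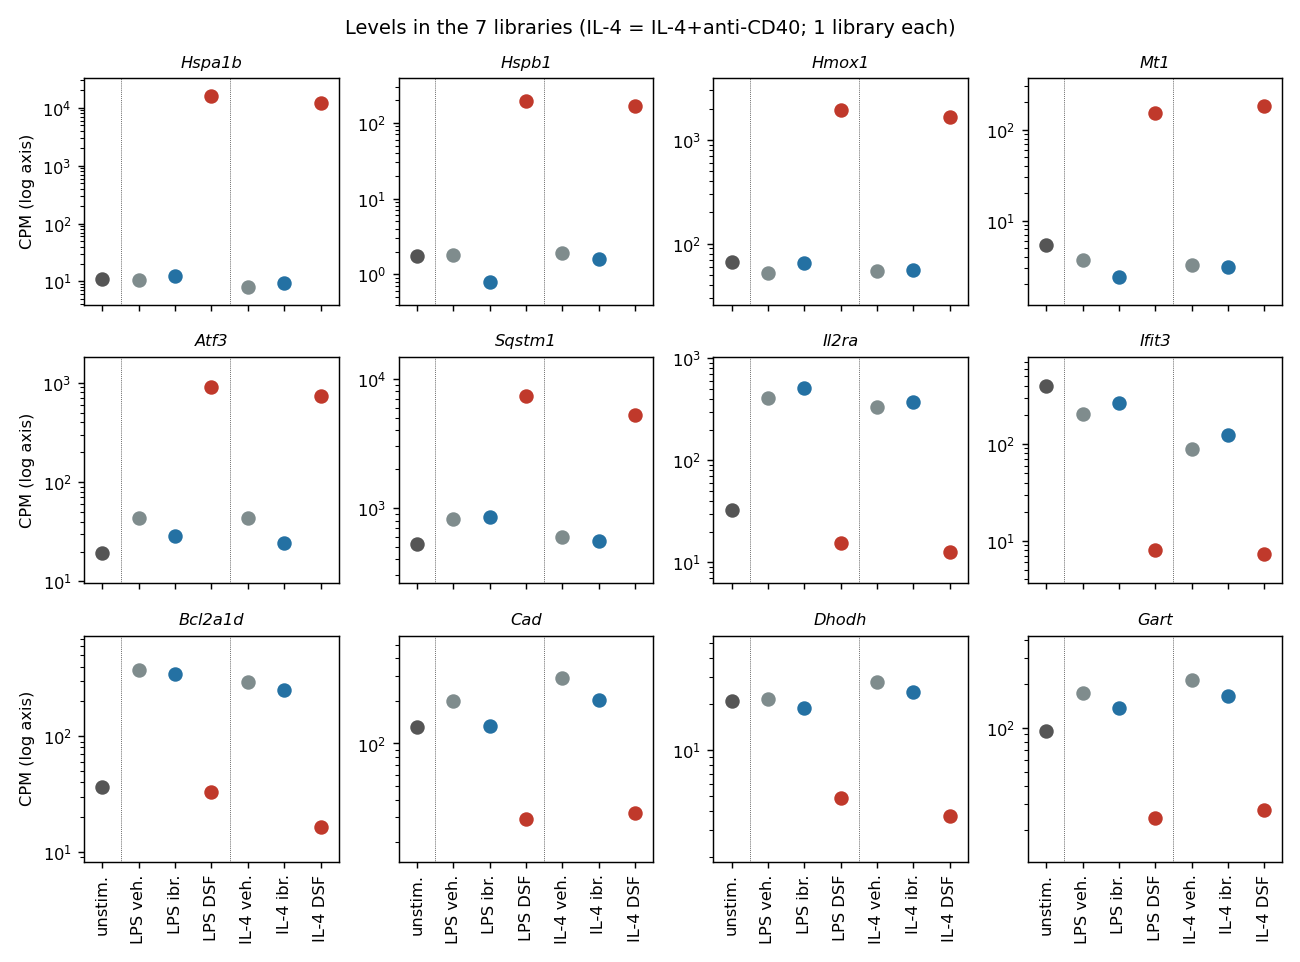
CPM after TMM scaling (log axis) of 12 genes in the 7 libraries of the second experiment, 1 point per library, with unstimulated cells in dark grey, vehicle in grey, ibrutinib in blue and DSF in red. For the first 6 genes both red points lie above all others, as with *Hmox1* at 1960 and 1650 CPM, and for the last 6 below all others, as with *Cad* at 29.1 and 32.0 CPM.

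Interferon-stimulated genes, which carry the antiviral program of type I interferon, were the list most on the side of ibrutinib. Of 31 genes 26 were 2-fold or more higher with ibrutinib under both stimuli and 0 with DSF, with medians of -2.14 and -1.98. Summed over the list, the level was 974 and 924 CPM with DSF against 3640 and 2990 CPM with ibrutinib, 3370 and 2600 CPM with vehicle and 3870 CPM in unstimulated cells. *Ifit3* had 137 and 103 counts with DSF, 6384 and 3217 with ibrutinib, 3721 and 1633 with vehicle and 8539 in unstimulated cells, log2 ratios of -5.03 (-5.31 to -4.81) and -4.07 (-4.38 to -3.8). *Ifit1* had 154 and 61 against 3259 and 1973 counts, *Ifit2* 177 and 116 against 3788 and 2699, and *Gbp5*, a guanylate-binding protein gene, 117 and 116 against 2637 and 2720. The DSF libraries were the 2 lowest of the 7 for all 4 genes.

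The first experiment did not show the same picture for these genes under both stimuli. With LPS 19 of the 31 were lower with DSF than with vehicle and 9 higher, and *Ifit3* changed by a log2 value of -0.64 (SE 0.0462, edgeR adjusted p = 5.38e-12). With IL-4+anti-CD40 1 was lower and 4 higher, the median was 0.45, and *Ifit3* had a log2 difference of 0.57 (SE 0.708, edgeR adjusted p = 0.509), with 2.14 to 18.4 CPM with vehicle and 2.93 to 23.5 CPM with DSF. Those levels were near the 10.7 to 29.5 CPM of unstimulated cells, whereas in the second experiment all libraries without DSF, unstimulated cells included, were at 89.0 CPM or more. *Ifi206*, *Slfn5*, *Slfn1* and *Ifi47*, among the 12 genes furthest on the side of ibrutinib, showed the same contrast, with log2 ratios of -4.82 to -3.43 here and log2 differences of -0.28 to -0.08 with IL-4+anti-CD40 in the first experiment, none of them past the adjusted threshold.

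Promoters of *Ifit1* and *Ifit3* are shown for the interferon-stimulated response element, searched as GAAANNGAA on both strands, a motif added after these genes were seen to be higher with ibrutinib. They come from RefSeq on GRCm38.p6, at chr19:34640729-34640870 and chr19:34583369-34583528, both on the plus strand. Capitals mark the matches, here in their reverse form.
Ifit1: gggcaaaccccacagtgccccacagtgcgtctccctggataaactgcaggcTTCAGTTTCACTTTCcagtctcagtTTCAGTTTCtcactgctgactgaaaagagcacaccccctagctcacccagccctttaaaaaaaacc
Ifit3: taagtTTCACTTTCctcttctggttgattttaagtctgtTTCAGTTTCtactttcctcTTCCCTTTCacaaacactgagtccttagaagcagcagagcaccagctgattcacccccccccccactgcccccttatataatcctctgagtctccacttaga
Each held 3 matches, of which 2 overlap in *Ifit1*. The element was in 14 of 30 windows (46.7%) of the interferon list, 7.13% of all windows, 6.61% of those of genes compared, 9.15% of those higher with ibrutinib and 5.39% of those higher with DSF.

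Genes that activation switches on were in part higher with ibrutinib. *Il2ra*, the alpha chain of the IL-2 receptor, had 260 and 176 counts with DSF, 12202 and 9570 with ibrutinib, 7344 and 6080 with vehicle and 696 in unstimulated cells, log2 ratios of -5.05 (-5.24 to -4.88) and -4.88 (-5.11 to -4.67), so both DSF libraries lay below unstimulated cells. *Cd83* had 10074 and 7217 against 50868 and 59121 counts, and *Cd69*, an early activation antigen, 5399 and 4297 against 20289 and 38959. In the activation list 5 of 19 genes were higher with ibrutinib and 1, *Cd9*, with DSF, with medians of -0.65 and -1.03, and under IL-4+anti-CD40 alone 10 were higher with ibrutinib. *Il2ra* also changed by log2 values of -1.22 and -1.58 with DSF in the first experiment, but there it stayed above unstimulated cells. Its levels with DSF were 241 to 285 CPM under LPS and 129 to 136 CPM under IL-4+anti-CD40, against 4.21 to 69.1 CPM in unstimulated cells. *Cd69* had log2 differences of -0.01 (edgeR adjusted p = 0.852) and 0.19 (adjusted p = 0.0608) in that experiment. *Il1a*, a cytokine gene with few counts, ranked first on this side, at 9 and 7 counts with DSF and 834 and 500 with ibrutinib, but had log2 differences of -0.32 under LPS (edgeR adjusted p = 0.0135) and 0.7 under IL-4+anti-CD40 (adjusted p = 0.257) between DSF and vehicle in the first experiment.

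A few survival genes among the targets of NF-kB were also higher with ibrutinib. *Bcl2l1*, which encodes BCL-XL, had 480 and 190 counts with DSF, 7065 and 4555 with ibrutinib, 5180 and 3322 with vehicle and 405 in unstimulated cells, log2 ratios of -3.38 and -3.7. *Bcl2a1d* and *Bcl2a1b*, copies of the A1 gene whose reads may be split between them, had log2 ratios of -3.41 and -3.94 and of -3.39 and -3.48. These were the 3 of 15 genes of the BCL2 family called higher with ibrutinib under both stimuli, and 0 were called higher with DSF. The list's medians were -0.76 under LPS and 0.54 under IL-4+anti-CD40. The survival gene *Mcl1* was not called, at 0.4 and 0.76. Among NF-kB targets as a whole 7 of 31 were higher with ibrutinib and 2 with DSF, with medians of -0.54 and -0.46, and under IL-4+anti-CD40 alone 13 were higher with ibrutinib. The counts under both stimuli are to be read beside the 17.6% of all genes compared that were higher with ibrutinib, and neither sets its list apart. In the first experiment 9 NF-kB targets were higher and 14 lower with DSF than with vehicle under LPS, and 5 and 16 under IL-4+anti-CD40.

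Many enzymes that build nucleotides were higher with ibrutinib. In the pyrimidine list 10 of 22 genes were called on the side of ibrutinib and 0 on the side of DSF, with medians of -1.03 and -1.1. *Cad*, which encodes the enzyme of the first 3 steps of pyrimidine synthesis, had 493 and 452 counts with DSF, 3156 and 5282 with ibrutinib, 3653 and 5315 with vehicle and 2813 in unstimulated cells, log2 ratios of -2.18 (-2.33 to -2.05) and -2.67 (-2.81 to -2.53). *Dhodh*, the next enzyme, had 83 and 53 against 451 and 626 counts, log2 ratios of -1.93 and -2.65. *Umps*, which completes UMP, had -1.26 and -0.89. On the side of recycling and of deoxynucleotides, *Uck1* had -1.29 and -1.25, *Uck2* -1.32 and -1.18, *Uprt* -1.04 and -1.98, *Dctd* -3.67 and -2.93 and *Dctpp1* -2.22 and -2.61. Genes not called on that side included *Tk1* at 0.82 and -0.5, *Tk2* at 0.31 and 0.59 and *Rrm2b* at 0.31 and 0.61. *Cad* and *Dhodh* both lay lower with DSF than in unstimulated cells, and both were lower with DSF than with vehicle in the first experiment, *Cad* by log2 changes of -1.81 in either stimulus.

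Purine synthesis went the same way, with 8 of 15 genes higher with ibrutinib, 1 with DSF and medians of -1.06 and -1.19. *Gart*, whose product carries 3 activities of the pathway, had 408 and 388 counts with DSF against 3246 and 4296 with ibrutinib, and *Pfas* 310 and 315 against 2071 and 3001. *Ppat*, the committed step, had 505 and 472 against 2053 and 2202, and overlaps *Paics*, its neighbour on the opposite strand. The 6 genes of the path from *Ppat* to IMP in the list, *Ppat*, *Gart*, *Pfas*, *Paics*, *Adsl* and *Atic*, were all called. The single gene on the side of DSF was *Adssl1*, at 1.05 and 1.74.

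Ribosome production was on the same side. Among 58 genes of ribosome biogenesis 25 were higher with ibrutinib and 0 with DSF, with medians of -0.96 and -1.08. *Polr1b*, a subunit of RNA polymerase I, had 538 and 552 counts with DSF against 4194 and 4979 with ibrutinib, *Polr1e* 239 and 168 against 1630 and 1722, and *Dkc1*, the pseudouridine synthase of rRNA, 846 and 815 against 4834 and 6214. Of 20 cytosolic aminoacyl-tRNA synthetases 6 were higher with ibrutinib and 0 with DSF, *Kars* among them at 989 and 939 against 4497 and 5890. The ribosomal proteins themselves parted by compartment. Of 77 mitochondrial ribosomal protein genes 33 were higher with ibrutinib and 1, *Mrps6*, with DSF, with medians of -1.09 and -0.96, whereas of 78 cytosolic ones 1 was called on each side, *Rps27l* being the one with ibrutinib, with medians of 0.47 and 0.7. Summed, the cytosolic list held 98700 and 104000 CPM with DSF against 71100 and 64400 CPM with ibrutinib, and the mitochondrial one 1390 and 1540 against 2500 and 2610 CPM.

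Nuclear genes of the respiratory chain were higher with ibrutinib in 17 of 76 and with DSF in 0, with medians of -0.73 and -0.6, *Ndufs5* for example at 117 and 131 against 608 and 695 counts. The count of 17 is to be read beside the 17.6% of all genes compared that were higher with ibrutinib, and does not set the list apart. The 11 genes of the mitochondrial genome had 0 calls on either side and medians of 0.65 and 0.5. In the first experiment 54 and 37 of the 76 nuclear genes were lower with DSF, and 9 and 10 of the 11 mitochondrial ones higher.

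The B cell receptor pathway, where ibrutinib acts, was not uniformly apart. Of 30 genes 6 were higher with DSF and 2 with ibrutinib, with medians of 0.36 and 0.47. Over all genes compared the shares were 11.0% and 17.6%. *Btk* itself had 1881 and 1604 counts with DSF and 3665 and 2126 with ibrutinib, log2 ratios of -0.47 and 0.47, with vehicle at 2215 and 1377 and unstimulated cells at 6052. *Blk*, a Src-family kinase, had 12680 and 11755 against 4895 and 3837 counts, and *Plcg2*, a substrate of BTK, 11100 and 7917 against 5428 and 4542. *Dok3*, an adaptor that restrains the receptor, had 3578 and 2844 against 1714 and 1068. *Cd79b*, the signalling chain of the receptor, stood on the other side with 5300 and 5623 counts with DSF, 35491 and 45108 with ibrutinib, 15735 and 18090 with vehicle and 28211 in unstimulated cells, so ibrutinib stood above vehicle and DSF below it.

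Of the proteins named as targets of DSF, the *Nup85* transcript was higher with ibrutinib, at 417 and 362 counts with DSF against 1619 and 2069, log2 ratios of -1.46 and -1.63, and changed by -0.92 and -1.06 with DSF in the first experiment. *Aldh2*, the mitochondrial acetaldehyde dehydrogenase, had 3768 and 3385 against 2978 and 2930 counts, log2 ratios of 0.83 and 1.08. *Aldh1b1*, its relative, went the other way at 31 and 42 against 124 and 384 counts. *Nploc4*, which encodes NPL4, had log2 ratios of 0.83 and 0.73, *Vcp*, which encodes p97, 0.44 in each, and *Gsdmd* -0.59 and -0.54. Of the 13 target genes of either drug 1 was called on the side of DSF and 2 on the side of ibrutinib. These counts lie near the 11.0% and 17.6% over all genes compared, and neither sets the list apart.

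Genes of resting lymphocytes leaned to DSF, at 6 of 24 against 0, with medians of 0.35 and 0.91. *Pik3ip1*, an inhibitor of PI3-kinase, had 1819 and 1748 counts with DSF, 464 and 281 with ibrutinib and 1300 in unstimulated cells, and *Cdkn2d*, a cyclin kinase inhibitor gene, 617 and 520 against 125 and 78. *Klf2* was not called, at 0.37 and 0.73. The trafficking list was divided, 4 of 18 with DSF and 8 with ibrutinib. *S1pr1*, the receptor that lets lymphocytes leave lymphoid tissue, had log2 ratios of 1.47 and 2.74, *Itgb7* of 1.3 and 3.08, *Ccr7* of -1.35 and -0.91 and *Cxcr4* of 0.23 and 0.89. *Cxcl10*, a chemokine gene that overlaps *Art3*, had 241 and 90 counts with DSF against 3590 and 3716.

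p53 targets had 5 of 19 on each side, beside unequal shares of 11.0% with DSF and 17.6% with ibrutinib over all genes compared. *Cdkn1a*, which encodes p21, had 8038 and 5441 counts with DSF against 1120 and 2324 with ibrutinib, and *Ccng1* 311 and 260 against 2154 and 3581, so targets lay at both ends. Glycolysis was likewise split 4 and 4 of 16, *Slc2a1*, the glucose transporter, with DSF at 3668 and 2570 against 974 and 998 counts and *Hk2* with ibrutinib at 484 and 323 against 1739 and 1638. *Gapdh* was also higher with DSF, but its counts of 237 and 244 with ibrutinib are uncertain, since the gene has many pseudogenes that can share its reads. Sterol genes were higher with ibrutinib in 6 of 26 and with DSF in 1, the cholesterol exporter gene *Abcg1*. The counts for sterol, replication and STAT6 genes are to be read beside the 17.6% of all genes compared that were higher with ibrutinib, and none sets its list apart. Licensing of replication had 3 of 17 on the side of ibrutinib and 0 on that of DSF, *Ccnd2* most with 2799 and 2258 against 14648 and 37487 counts. STAT6 and SOCS genes had 2 of 13 on the side of ibrutinib, *Batf* and *Fcer2a*, and 0 on that of DSF, and under IL-4+anti-CD40 alone 6 were higher with ibrutinib. Of the 13 genes for MHC class II presentation 0 were called on either side under both stimuli, and 3 were higher with ibrutinib under IL-4+anti-CD40 alone.

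**Figure D4:**
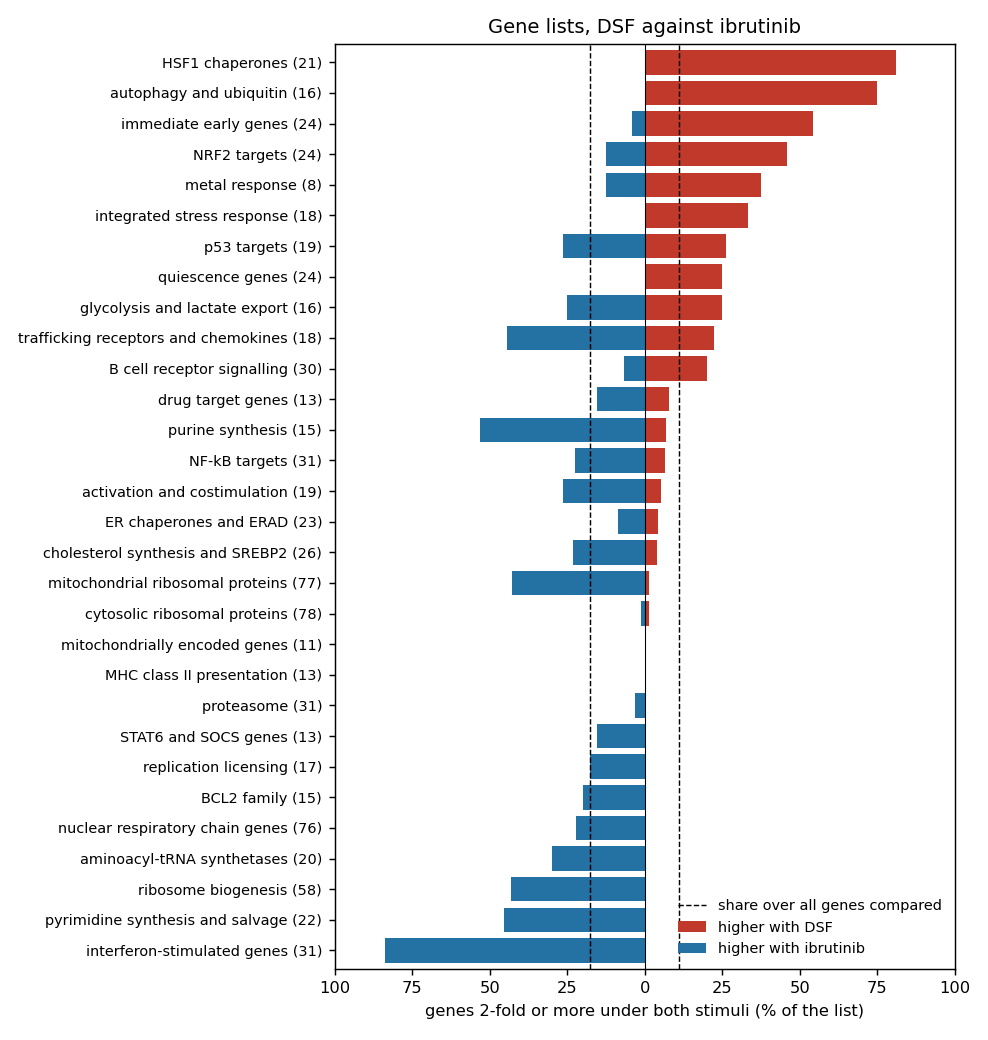
Bars give, for each of 30 lists (genes compared in parentheses), the share of genes 2-fold or more higher with DSF (red, right) or with ibrutinib (blue, left) under both stimuli; dashed lines mark the shares over all genes compared, 11.0% and 17.6%. HSF1 chaperones (17 of 21) and interferon-stimulated genes (26 of 31) stand at the ends.

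In a small set of genes the ibrutinib library stood further from vehicle than the DSF library did. This placement was looked at after the counts were seen. Among the 1066 genes higher with DSF, vehicle was nearer DSF under both stimuli for 12, and in 9 of them ibrutinib was 2-fold or more from vehicle in both. *Egr3*, an early growth response gene, had 559 and 258 counts with ibrutinib, 1083 and 836 with vehicle and 1900 and 1140 with DSF. *Nr4a3* had 1514 and 763, 2395 and 1584, and 3689 and 1650 counts in the same order. *Plau*, which encodes urokinase, had 43 counts in each ibrutinib library, 221 and 229 with vehicle and 334 and 284 with DSF. Ibrutinib thus lay below vehicle for *Plau*, and DSF above it by log2 ratios of 0.69 and 0.68. DSF also lay above vehicle for the gene of its receptor, *Plaur*. *Gfi1*, *Hivep3*, *Zc3h12c*, *Tent5c*, *Gng4* and *Bspry* were the other 6. For *Zc3h12c* DSF was also past 2-fold from vehicle with LPS, at a log2 ratio of 1.11.

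Among the 1702 genes higher with ibrutinib, vehicle was also nearer DSF under both stimuli for 12, and in 6 of them ibrutinib was 2-fold or more above vehicle in both. *Pim2*, a survival kinase gene, had 6982 and 4980 counts with ibrutinib, 2411 and 1124 with vehicle and 1117 and 824 with DSF. *Lef1*, a transcription factor of the Wnt pathway, had 582 and 935 with ibrutinib, 155 and 285 with vehicle and 154 and 136 with DSF. *Gbp2*, *Tifa*, *Scn4a* and *Gh* completed the 6. DSF was also past 2-fold below vehicle for *Pim2* and *Gbp2* with LPS, at log2 ratios of -1.01 and -1.08. For *Scn4a* it was so with IL-4+anti-CD40, at -1.04. *Egr2*, an early growth response gene not called under both stimuli, had 113 and 510 counts with ibrutinib, 266 and 1355 with vehicle, 509 and 367 with DSF and 540 in unstimulated cells.

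Among the genes past 2-fold in opposite directions, *Klhl14* and *Kcnk13* had DSF levels that were closer between the stimuli than their ibrutinib levels. *Klhl14* had 668 and 141 counts with ibrutinib and 200 and 199 with DSF, log2 ratios of -1.24 and 1.36. *Kcnk13* had 24 and 291 with ibrutinib and 39 and 58 with DSF, 1.12 and -1.43. The genes furthest apart by the difference of ratios showed the same. *Nfil3* was at 9.49 and 151 CPM with ibrutinib and 14.2 and 16.6 CPM with DSF, *Cish*, a feedback inhibitor of cytokine receptors, at 5.92 and 76.2 CPM and 34.7 and 39.9 CPM, and *Bmf*, a pro-apoptotic BCL2 family gene, at 68.7 and 12 CPM and 40.5 and 33.9 CPM.

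Counted over all genes, LPS and IL-4+anti-CD40 differed by 2-fold or more in 408 genes (4.22%) with vehicle, 407 (4.21%) with ibrutinib and 74 (0.766%) with DSF. This comparison was added after the genes with opposite signs were seen. Of the 266 genes that were 2-fold higher with LPS in vehicle, 181 were so with ibrutinib and 13 with DSF, with median log2 differences of 1.18 and 0.19. Of the 142 that were 2-fold higher with IL-4+anti-CD40 in vehicle, 110 were so with ibrutinib and 14 with DSF, with medians of -1.4 and -0.39. The vehicle libraries chose these genes, so only the ibrutinib and DSF values are to be compared. The counts of the 2 DSF libraries differed by a chi-square of 19.7 per gene, more than counting error alone gives, and whether they came from separate cultures was not tested. In the first experiment, by means of 4 libraries, the stimuli differed by 2-fold in 910 genes (9.42%) with vehicle and 520 (5.38%) with DSF, a smaller contrast than in the second.

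**Figure D5:**
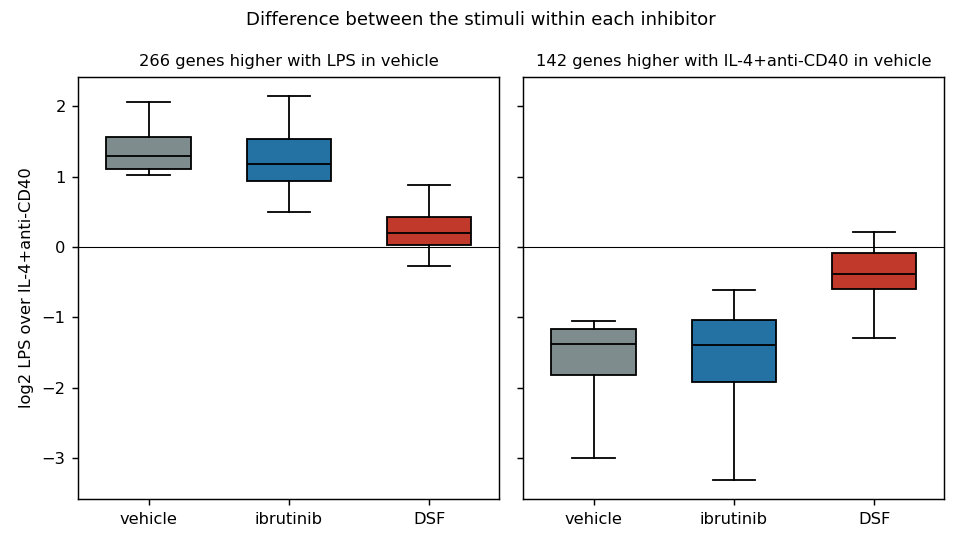
Boxes show the log2 ratio of LPS over IL-4+anti-CD40 within vehicle (grey), ibrutinib (blue) and DSF (red) for 266 genes chosen as higher with LPS in vehicle (left) and 142 chosen as higher with IL-4+anti-CD40 in vehicle (right), 1 library per condition; whiskers are the 5th and 95th percentiles. Medians are 1.18 and -1.4 with ibrutinib and 0.19 and -0.39 with DSF.

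Further features of these sets are given as descriptions. Summed exon length as deposited had a median of 4755 bases for the genes higher with DSF, 3976 for those higher with ibrutinib and 4451 for all genes compared. Their median level in unstimulated cells was 28.6 and 32.1 CPM, beside 39.3 CPM over all. The unstimulated library entered the mean that kept genes, but not the ratios. With LPS the medians were 93.0 CPM with DSF and 21.3 CPM with ibrutinib for the first set, and 12.3 and 36.6 CPM for the second. The ratio of these LPS libraries helped choose the sets, so the direction of this gap was fixed by the choice. The E-box CACGTG was in 14.5% of windows of genes higher with DSF, 7.44% of those higher with ibrutinib and 8.93% of those of all genes compared, and the element TGACGTCA in 3.66%, 1.89% and 2.78%. The C/EBP-ATF site TGATGNAAT, searched on both strands, was in 0.482%, 0.732% and 0.362%.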

How the data were processed

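RNA of 27 mouse B cell samples was sequenced after poly(A) selection, in 2 experiments. Per the submitters' processing notes and the study's methods, the authors trimmed reads with fastp, aligned them to mm10 with HISAT2 2.0.5 and counted them per gene with featureCounts 1.5.0-p3. The strand setting and annotation release are not given in the sources used here. The authors deposited, per gene, raw read counts and FPKM values, the latter divided by gene length and library total. All columns of per-sample values were matched to samples, so 0 were left out. The other columns hold gene names, positions and lengths, and FPKM values of the first experiment were not used.

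Counts of the second experiment were scaled by TMM (edgeR 4.0.16, R 4.3.3) and turned into log2 ratios of CPM with a prior count of 2. Intervals are exact Clopper-Pearson (95%) on the counts. With 1 library per condition, 2-fold or more counts as called. The first experiment was scaled separately and fitted per stimulus with edgeR's quasi-likelihood test over 8 libraries (TMM, filterByExpr, Benjamini-Hochberg adjusted p of 0.05 or less). The edgeR fit was tested on counts simulated from the first experiment. Python 3.11.15, pandas 2.3.3, numpy 2.4.6, SciPy 1.17.1 and matplotlib 3.10.9 did the rest. Promoter windows are 250 bases before RefSeq starts.

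The genes named are the 12 protein-coding genes per direction with the largest smaller ratio of the 2 stimuli, up to 4 called genes per list, 4 opposite genes per direction and a short list always given, with others named after their values were seen. A few genes that this rule names are not reported here. Members and lists were chosen with earlier results of these data known. The alternatives were other scalings (total counts, DESeq2 1.42.0 size factors, TMM over 4 libraries, FPKM), mean-count limits, prior counts, folds, the replicate block and leaving out libraries.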

Additional observations from a re-analysis of the deposited data

Results flagged for a closer look

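In the first experiment *Cad* was at 74.9 CPM in replicate 3 of IL-4+anti-CD40 with DSF, while the other 3 replicates lay between 83.6 and 84.8 CPM. The limit used (Dixon, 95%) flags about 1 in 20 groups by chance.

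The ratio of DSF over ibrutinib passed 2-fold in opposite directions under the 2 stimuli for *Klhl14*, with a log2 ratio of -1.24 under LPS and 1.36 under IL-4+anti-CD40, and for *Kcnk13*, with 1.12 and -1.43. With 1 library per condition, these differences between stimuli were not tested.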

How the results depend on the processing

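Of 515 values under alternative settings for 75 results, 498 stayed within the limits set for a like value, 17 moved and 0 called values changed sign. Among the list medians, which carry no call, 10 values of 6 results changed sign, all from medians between -0.13 and 0.23, to values between -0.29 and 0.29. The ratios rest on 1 library per condition, and depth limits genes with few counts. The number of genes with opposite signs, 3 as reported, was 6 with total counts, 27 at a mean of at least 10 counts and 1 at 500. At a mean of at least 10 counts, 2788 genes were higher with DSF under LPS, 2943 under IL-4+anti-CD40 and 2194 under both. At 500 these were 769, 869 and 654, and 1210, 1224 and 1001 were higher with ibrutinib, while the pyrimidine median with IL-4+anti-CD40 moved to -0.5. At 1.5-fold 1781 genes were higher with DSF under both stimuli and 2997 with ibrutinib, and at 4-fold 373 and 221. Other scalings gave 1161 and 1531 (DESeq2 size factors), 1065 and 1639 (FPKM), 1118 and 1626 (TMM over 4 libraries) and 1072 and 1716 (prior count 0.5), and IL-4+anti-CD40 alone, chosen after seeing the data, 1421 and 2109. The mean limits change the number of genes kept and the fold settings the size asked for; the cause of the other moves was not tested.

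Leaving out each replicate of the first experiment gave, over all genes tested there, 4732 to 4870 genes higher with DSF under LPS (4966 with all libraries) and 4980 to 5162 lower (5096), and 3988 to 4424 (4301) and 4130 to 4543 (4514) under IL-4+anti-CD40. Of the genes higher with DSF than ibrutinib 1014 to 1020 and 992 to 1011 were called higher, and of those higher with ibrutinib 1616 to 1631 and 1481 to 1523 were called lower. With the replicate number as a block the counts were 4949 and 5098 under LPS and 4155 and 4310 under IL-4+anti-CD40. Deviations of same-numbered samples correlated at -0.0684 to 0.0589 under LPS and -0.0351 to 0.197 under IL-4+anti-CD40. These few values cannot decide whether the numbers pair the samples, because the mouse behind each library is not named.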
